A study of Homo sapiens with 4 samples.

Results

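The sites described here are 265 isolated, mostly modest binding sites of HNF1 (hepatocyte nuclear factor 1) in Caco2 cells. Each was found in both of 2 chromatin immunoprecipitation (ChIP-seq) peak lists and had no other such site within 1000 kb on either side. They were chosen by position and score. Peaks of the lists that overlapped by at least 1 bp were joined into shared regions, and a shared region was kept if no other shared midpoint lay within 1000 kb and if its score was below 22 in at least 1 list. Chromosomes X and Y were left out. The rule kept 265 of 2905 shared regions, or 265 of the 2849 on autosomes. A further 27 autosomal regions were equally isolated but scored 22 or more in both lists, so that 292 regions were isolated at any score. The remaining 2557 autosomal shared regions were not isolated.

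Caco2 is a human colorectal adenocarcinoma line that serves as a model of intestinal epithelial cells. The cells were grown in low-glucose medium with serum, and the labels name no treatment or genetic change. The study set out to learn which parts of the genome HNF1 occupies in such cells, and it comprised 2 HNF1 immunoprecipitations and 2 inputs without antibody, all from this 1 cell line. The antibody field names HNF1, whereas the extraction text names FOXA2, and which of them applies was not tested. Nothing in the labels says that the replicates were separate cultures, so differences between them may be technical.

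HNF1 is a homeodomain transcription factor that binds a palindromic DNA sequence as a dimer. In the intestine it is known as a regulator of enterocyte genes, such as those of the disaccharidases of the brush border, and in the liver as a regulator of genes of secreted plasma proteins. Many sites of such factors lie away from promoters, at enhancers, which can act on genes over long distances. No hg19 sequence or gene annotation was used here, so the sites are given by hg19 position, no gene is assigned to them and no sequence is shown.

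Replicate 1 was sequenced to 11931439 tags and its list holds 5060 peaks, each 143 bp wide. Replicate 2 was sequenced to 18469659 tags and its list holds 4955 peaks of 227 bp. The score of a peak is the authors' tag count per 10000000 tags, rounded to a whole number. The scores are used within each list only, since the lists differ in peak width and calling settings. Each library has 1 list, so values carry no standard deviation. The intervals below are 95% intervals (Wilson for shares, exact binomial for medians). They reflect the number of sites or peaks only and leave out the error of the tag counts. Sites are not independent replicates.

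The isolated sites were of low to middling score, as the rule requires in part. Their median score was 13 in replicate 1 (quartiles 9 and 18, range 6 to 52). In replicate 2 the median was 12 (quartiles 9 and 15, range 6 to 31). These medians correspond to about 15.5 tags and 22.2 tags, for which counting error alone is 25.4% and 21.2% of the value. The calling thresholds were 9 and 13 tags, per the file headers. The lowest scores, 6 in each list, convert to fewer tags than these, so the tag counts are approximate. A total of 214 sites, or 80.8%, were below 22 in both lists, 42 were below it in replicate 2 alone and 9 in replicate 1 alone. A score of 22 was not equally common in the lists. Of autosomal peaks not isolated in their own list, 957 of 4792 in replicate 1 and 634 of 4659 in replicate 2 reached it. In each list 106 sites, or 40.0%, scored below the median of that list (12 in replicate 1 and 11 in replicate 2), and 56 sites, or 21.1%, did so in both. The list medians include peaks found in 1 list alone, and the rule itself used the scores, so these shares are description only. None ranked among the 50 highest scored peaks of either list, and 15 in replicate 1 and 3 in replicate 2 ranked among the highest 500. The rule limits these counts too, since a score of 22 had rank 933 in replicate 1 and 570 in replicate 2. Only the 42 sites at 22 or more in replicate 1, and the 9 in replicate 2, could be among the highest 500. Across the 265 sites the scores of the lists had a Pearson's r of 0.40 and a Spearman's rho of 0.40. These describe sites chosen by score, which share their libraries. In the 2145 autosomal shared regions that were not isolated but met the same score limit, r was 0.29 and rho was 0.41. Their median scores were 14 (13 to 14) in replicate 1 and 13 (13 to 13) in replicate 2. Those of the isolated sites were close to this, at 13 (12 to 13) and 12 (11 to 13).

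**Figure D1:**
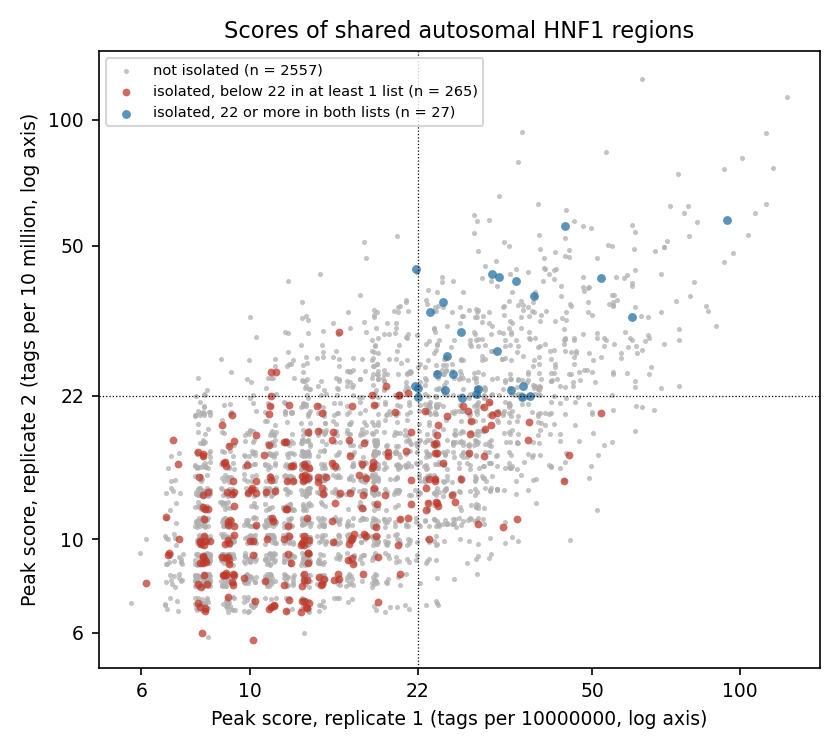
Peak score in replicate 1 (x) against replicate 2 (y), both in tags per 10000000 on log axes, for every shared autosomal region, with a small random shift to separate equal scores. The 265 isolated sites (red) fill the low and middle range outside the upper right quadrant, which the score limit of 22 (dotted lines) sets apart and which holds the 27 isolated regions above it (blue).

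The best ranked of the isolated sites lay on chromosome 11. By the worse of its ranks in the 2 lists, the first was chr11:22696140-22696366, which scored 31 in replicate 1 (rank 422 of 5060) and 21 in replicate 2 (rank 647 of 4955). Its neighbours among the shared regions were 2.32 Mb away on one side and 4.51 Mb on the other. The next was chr11:3901277-3901503, with scores of 30 and 21 and a neighbour at 1.04 Mb. The third, chr11:44006720-44006946, scored 27 and 21. It had no shared region for 8.38 Mb on one side and 2.73 Mb on the other, and no peak of either list within 1.84 Mb.

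Chromosome 11 also held chr11:97603376-97603609, which scored 31 and 20. The site with the highest replicate 1 score of all, chr20:55785137-55785363, scored 52 there (rank 100) and 20 in replicate 2 (rank 739). A member with such a score in 1 list had to be below 22 in the other, by the rule. On chromosome 19, chr19:8750111-8750337 scored 32 and 20, and chr19:35949821-35950047 scored 31 and 19. The list of 10 was completed by chr7:84705204-84705430 with 28 and 20, chr2:149504629-149504855 with 25 and 20, and chr1:233495320-233495546 with 37 and 19. In replicate 1 these 10 ranked from 100 to 705, and in replicate 2 from 647 to 850.

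The 8 isolated sites of chromosome 11 scored a median of 27.5 (replicate 1) and 20.5 (replicate 2), the highest medians of any autosome in both lists. They were singled out after their values were seen. Besides the 4 above they were chr11:46740599-46740825 with scores of 28 and 18, chr11:110169139-110169365 with 12 and 21, chr11:7626748-7627047 with 17 and 14, and chr11:70905852-70906078 with 11 and 10. The last 2 lay within the quartiles of the isolated sites in both lists, and chr11:110169139-110169365 did so in replicate 1. The replicate 1 median thus rested on the other 5 sites.

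At the score limit, the members nearest to it scored 21 in their lower list. They were the first 3 sites above and chr2:18480810-18481036, which scored 21 in replicate 1 and 22 in replicate 2. Just beyond the limit, and so not members, were chr16:87562472-87562759 with 22 and 22, chr15:38917091-38917317 with 22 and 23, chr5:59968707-59968933 with 22 and 23, and chr6:127404303-127404529 with 27 and 22. Since 1 tag adds 0.838 to a score of replicate 1 and 0.541 to one of replicate 2, the sets were about 1 or 2 tags apart in their lower list.

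Without the score limit, isolated regions still had lower scores than regions with close neighbours. The 292 isolated regions of any score had medians of 13 in replicate 1 (13 to 14) and 13 in replicate 2 (12 to 14). The 2557 regions that were not isolated had medians of 16 (15 to 17) and 14 (14 to 15). Regions within 10 kb of another shared region, 293 in number, had medians of 18 (16 to 18) and 17 (16 to 18). At 10 to 100 kb the medians were 16 (15 to 17) and 15 (14 to 15), and at 100 to 500 kb 15 (14 to 16) and 14 (13 to 14). Next to the limit the medians were closer in replicate 2 only. Regions with a neighbour at 500 to 1000 kb had medians of 16 (14 to 18) and 13 (12 to 14). At 1000 to 2000 kb the medians were 13 (13 to 15) and 13 (12 to 14), so in replicate 2 these bands had the same median. In replicate 1 they stood at 16 and 13, as did all not isolated and all isolated regions, and the intervals of these bands overlap. The share of regions that scored 22 or more in both lists was 24.2% (19.7% to 29.5%) within 10 kb and 17.9% (15.5% to 20.7%) at 10 to 100 kb. It was 13.6% (11.7% to 15.9%) at 100 to 500 kb and 12.5% (9.51% to 16.2%) at 500 to 1000 kb. Among regions whose nearest neighbour was 1000 to 2000 kb away it was 11%, or 22 of 200 (7.38% to 16.1%). Beyond 2000 kb it was 5.43%, or 5 of 92 (2.34% to 12.1%). The share was thus lower in each band than in the one before it. Adjoining bands overlapped in their intervals, and the first and the last did not. These differences were not tested, since regions of 1 library are not replicates.

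**Figure D2:**
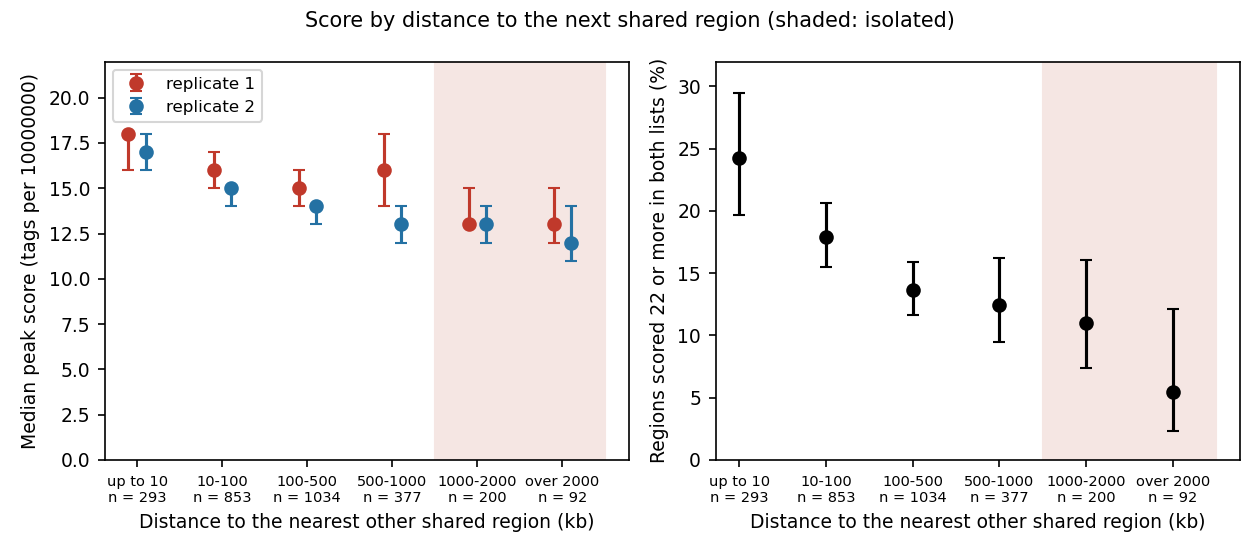
Median peak score in each replicate (left, tags per 10000000) and percentage of regions scored 22 or more in both lists (right), by distance to the nearest other shared autosomal region in kb, with 95% intervals as bars. The 2 shaded bands are the isolated regions at any score, where the share was 11% and 5.43%, against 24.2% for regions with a neighbour within 10 kb.

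The median distance to the nearest other shared region was 1.499 Mb (quartiles 1.20 and 2.17 Mb), and the rule fixes the lower end. At 2000 kb, 87 of the 265 sites were still isolated. Just inside the limit were chr6:10270275-10270501 at 1005.6 kb, chr10:78916297-78916523 at 1005.83 kb, chr2:116393082-116393308 at 1006.99 kb and chr10:115495828-115496054 at 1007.01 kb. Just outside were chr10:11741522-11741748 at 999.946 kb, chr20:11963266-11963492 at 995.058 kb, chr10:66491610-66491836 at 993.254 kb and chr1:15516426-15516764 at 988.492 kb. Of the 265 sites, 17 had a shared region on 1 side only, because they were the first or the last of their chromosome.

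The site farthest from another shared region was chr9:75598399-75598656, which scored 13 in replicate 1 and 11 in replicate 2. Its nearest shared regions were 14.4 Mb and 37.6 Mb away. The next was chr7:65703063-65703300, with scores of 15 and 31 and neighbours at 8.32 Mb and 10.4 Mb. Its 31 was the highest replicate 2 score among the isolated sites. Then came chr5:24510667-24510941 with scores of 8 and 12 and a neighbour at 6.51 Mb, and chr9:27379885-27380111 with scores of 9 and 7 and a neighbour at 6.02 Mb. The site chr2:1557792-1558018, the first shared region of its chromosome, scored 7 and 11 and was 4.79 Mb from the next. The site chr4:164562864-164563090 scored 8 and 10, with a neighbour at 4.36 Mb. These distances are to shared regions, and peaks of 1 list alone lay nearer. The nearest such peak was 8.46 kb from chr9:27379885-27380111 and 72.0 kb from chr7:65703063-65703300. From the others it was 0.467 to 1.42 Mb away. Apart from the replicate 2 score on chromosome 7, these 6 sites scored no more than 2 units above the median of the isolated sites. Centromeres and assembly gaps were not used here, so a distance may span sequence in which no tag can be placed.

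Along the autosomes, isolated sites stood alone or in series. Of 181 uninterrupted series of isolated sites, 128 consisted of 1 site, 36 of 2, 7 of 3, 6 of 4 and 4 of 5. Thus 137 of the 265 sites had another of the 265 as the next shared region on at least 1 side. Such neighbours share a gap of more than 1000 kb, so a site beside an isolated one already meets the rule on that side, and nothing is read from this number. The widest series of 5 covered 13.7 Mb at the end of the shared regions of chromosome 18. It began at chr18:60767055-60767281 with scores of 20 in replicate 1 and 11 in replicate 2. It went on with chr18:64813105-64813343 at 13 and 7, chr18:68044089-68044318 at 23 and 12 and chr18:71901641-71901867 at 10 and 8. It ended with chr18:74483095-74483321 at 23 and 20. The distances between them were 4.05, 3.23, 3.86 and 2.58 Mb. Replicate 1 scores thus went up and down along the series, and 4 peaks of 1 list alone lay within it. The other series of 5 covered 12.7 and 8.19 Mb on chromosome 1 and 5.61 Mb on chromosome 10.

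Every autosome held at least 2 isolated sites. The number ranged from 2 on chromosome 21 to 27 on chromosome 2, with a median of 11.5. As a share of a chromosome's shared regions it ranged from 4.71% on chromosome 11 (2.40% to 9.01%, 8 of 170) to 15.8% on chromosome 14 (9.27% to 25.6%, 12 of 76). The intervals of these extremes do not overlap, but they were picked as the extremes of 22 chromosomes and were not tested. Across the 22 autosomes the share was lower where shared regions were denser (Spearman's rho -0.63, Pearson's r -0.65), which the isolation rule itself brings about. Chromosome 15 had the highest density of isolated sites, 0.147 per Mb of the span between its first and last peak, although its density of shared regions, 1.14 per Mb, was above the median of 1.02.

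Peaks found in 1 list alone took no part in the isolation rule, and they were also sparser around the isolated sites. Their nearest such peak was at a median of 220 kb (159 to 312 kb). For the 2145 autosomal shared regions that were not isolated and were likewise below 22 in at least 1 list, it was at 99.7 kb (92.0 to 110 kb). Within 1000 kb the isolated sites had a mean of 2.40 peaks of 1 list alone, against 4.79. Within 100 kb, 96 of 265 isolated sites had such a peak, or 36.2% (30.7% to 42.2%), against 50.1% (48.0% to 52.2%). Close to the site the groups were alike within their intervals. Within 10 kb the share was 12.1% (8.68% to 16.5%) against 13.99% (12.6% to 15.5%), and within 1 kb it was 2.26% (1.04% to 4.85%) against 2.84% (2.22% to 3.64%). At 50 kb the intervals first stood apart, with 25.7% (20.8% to 31.2%) against 35.0% (33.0% to 37.0%). Whether the density of peaks along the genome has a part in this result was not tested.

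**Figure D3:**
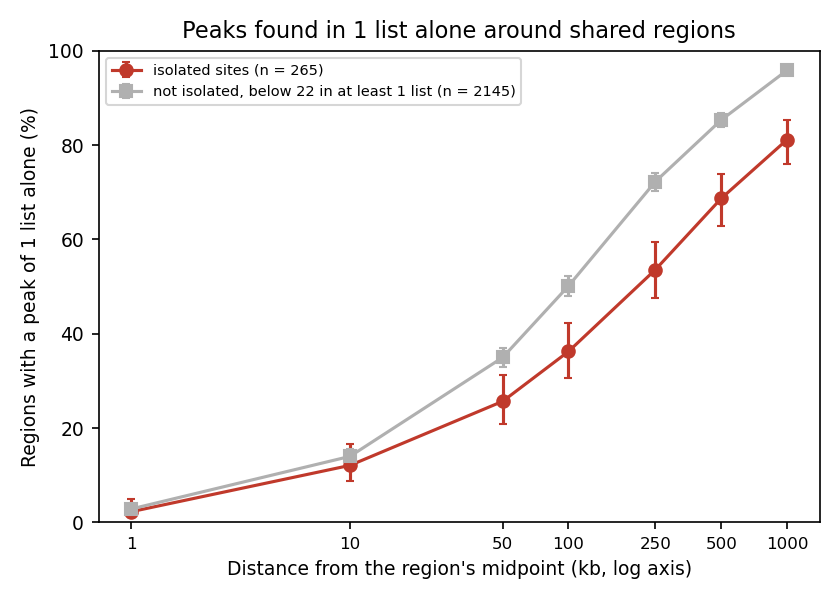
Percentage of regions with a peak found in 1 list alone (y) within a given distance of their midpoint (x, kb, log axis), with 95% Wilson intervals, for the isolated sites (red) and for regions that were not isolated but met the same score limit (grey). The lines lie together at 1 and 10 kb, and at 100 kb they stand at 36.2% and 50.1%.

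By list, 11 isolated sites had a peak of replicate 1 alone within 10 kb, or 4.15% (2.33% to 7.28%), and 23 had a peak of replicate 2 alone, or 8.68% (5.85% to 12.7%). Among the not isolated regions under the same score limit the shares were 7.65% (6.60% to 8.85%) and 7.32% (6.29% to 8.50%). The intervals overlap in each case. The 6 isolated sites with a peak of 1 list within 1 kb were looked at singly, a choice made after their values were seen. The closest pair was chr1:171129446-171129672, scored 24 and 16, with a replicate 1 peak of score 14 at 419 bp. At chr3:9939638-9939864, scored 21 and 11, a replicate 1 peak of score 12 lay at 437 bp. The other 4 had a replicate 2 peak beside them. These were chr4:173647300-173647557 (scores 17 and 17) with a peak of 10, chr13:92192095-92192321 (11 and 20) with a peak of 14, chr5:7879277-7879503 (37 and 17) with a peak of 8, and chr2:6343740-6343966 (15 and 12) with a peak of 7. In all 6 the neighbour scored lower than the site did in the same list, by 5 to 10 units. Replicate 2 peaks closer than 452 bp to each other and replicate 1 peaks closer than 284 bp were not called, per the file headers, so nearer pairs could not appear within a list.

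At the far end, 50 of the 265 sites, or 18.9%, had no peak of either list within 1000 kb. Among the not isolated regions under the same score limit, 4.15% had no peak of 1 list alone within that distance. The site farthest from any peak was chr22:50825879-50826138, the last shared region of its chromosome, which scored 17 and 12 and was 4.05 Mb from the next peak. Next was chr8:110893278-110893515 with scores of 10 and 7, at 2.74 Mb. It was followed by chr15:28288817-28289073, which scored 20 in both lists, at 2.26 Mb, and by chr21:21085699-21085925, which scored 9 in both, at 2.17 Mb. The pair chr2:240218392-240218618, with 12 in both lists, and chr2:242291227-242291453, with 15 in both, faced each other across 2.07 Mb with no peak of either list between them. Over all 50 the median scores were 11 in replicate 1 (9 to 13) and 12 in replicate 2 (10 to 14), against 13 (12 to 14) and 12 (11 to 13) in the other 215.

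In the 50 sites without any peak nearby, the peaks of the lists were less closely centred on each other. The distance between the midpoints of the 2 peaks of a site had a median of 48.5 bp in these 50 (28 to 54 bp) and of 25 bp in the other 215 (21 to 29 bp). Midpoints 50 bp or more apart were found in 24 of 50, or 48.0% (34.8% to 61.5%), against 48 of 215, or 22.3% (17.3% to 28.4%). The medians stood in the same order in both ranges of score. Where the lower score was 6 to 11, the medians were 50 bp (25 to 54 bp, n = 35) and 26.5 bp (23 to 34 bp, n = 130), and where it was 12 to 21 they were 47 bp (17 to 73 bp, n = 15) and 21 bp (15 to 29 bp, n = 85). Within each score range the intervals overlap. Of the regions that were not isolated, 97 likewise had no peak of 1 list within 1000 kb, and their median was 27 bp (19 to 33 bp), the same as in the 2460 that had one (27 bp, 25 to 29 bp). Midpoints less than 20 bp apart were found in 26.0% of the 50 (15.9% to 39.6%) and in 39.1% of the 215 (32.8% to 45.7%), and midpoints within 100 bp in 94.0% (83.8% to 97.9%) and 92.1% (87.7% to 95.0%). Among the 97 regions, 30.9% (22.6% to 40.7%) had midpoints 50 bp or more apart. Of these intervals, only the shares at 50 bp or more in the 50 and the 215 do not overlap. The comparison and the limits of 50 and 20 bp were chosen after the value for the 50 sites was seen, and neither was tested. The lists were called with fragment lengths of 76 bp and 226 bp, and what part this has in the offset was not tested.

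**Figure D4:**
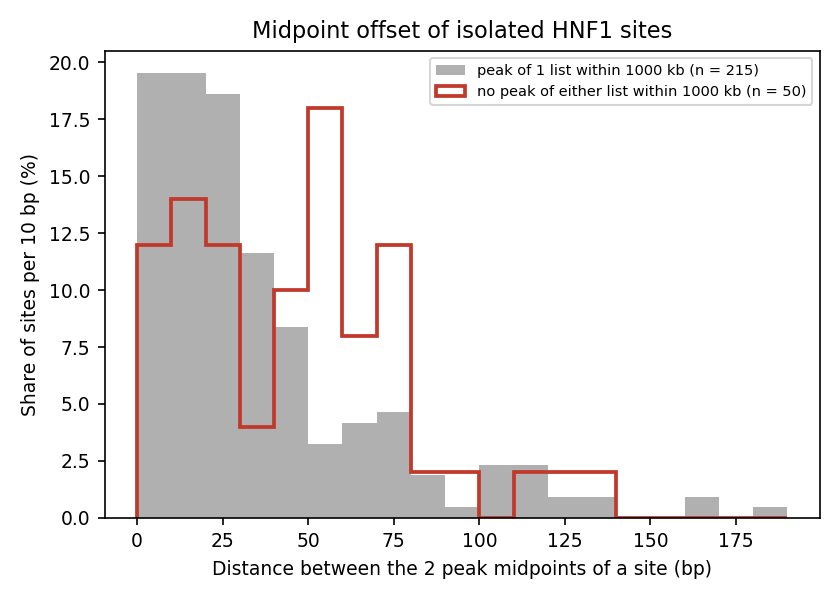
Distribution of the distance between the 2 peak midpoints of an isolated site (x, bp, bins of 10 bp) as a percentage of sites (y), for 215 sites with a peak of 1 list within 1000 kb (grey) and 50 sites with no peak of either list within 1000 kb (red outline). The grey sites are most frequent below 30 bp, and the red ones are spread more evenly up to 80 bp, with medians of 25 and 48.5 bp. With 50 red sites, each bin holds few.

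Over all 265 sites, the centring was close to that of other shared regions. Their median offset was 28 bp (24 to 31 bp), against 27 bp (25 to 28 bp) in the other 2584 autosomal shared regions. Midpoints within 100 bp were found in 245 of 265, or 92.5% (88.6% to 95.1%), against 94.1% (93.1% to 94.9%). By the lower of the 2 scores, the median offset of the isolated sites was 29 bp at scores of 6 to 8, 27.5 bp at 9 to 11, 29 bp at 12 to 15 and 19 bp at 16 to 21. In the other regions it was 32.5, 30, 28 and 23 bp. The overlap needed to call a region shared limits this distance in all groups.

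Whether isolated peaks recur can be asked without the rule that chose the sites, by judging isolation in 1 list and looking for a partner in the other. In replicate 1, 179 autosomal peaks had no other replicate 1 peak within 1000 kb, and 103 of them, or 57.5% (50.2% to 64.5%), overlapped a replicate 2 peak. Of the 4792 peaks that were not isolated, 57.3% did (55.9% to 58.7%). In replicate 2, 113 of 207 isolated peaks had a partner in replicate 1, or 54.6% (47.8% to 61.2%), against 58.7% (57.3% to 60.1%) of 4659. Isolated and not isolated peaks thus recurred at shares that overlap in their intervals in both lists.

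The same held at each level of score. Among replicate 1 peaks scored 6 to 8, 28.3% of the isolated ones recurred (17.97% to 41.6%, n = 53) and 26.9% of the others (24.4% to 29.4%). At scores of 9 to 11 the shares were 55.4% (42.4% to 67.6%, n = 56) and 45.0% (42.0% to 48.1%). At 12 to 15 they were 71.1% (55.2% to 83.0%, n = 38) and 61.0% (57.8% to 64.1%). All 10 isolated peaks scored 16 to 21 had a partner (72.2% to 100%), against 76.9% of the others (73.5% to 79.9%). At 22 and more, 90.9% (72.2% to 97.5%, n = 22) stood against 92.2% (90.3% to 93.7%). In replicate 2 the isolated peaks recurred at 26.9%, 54.0%, 73.3%, 86.4% and 90.0% from the lowest to the highest scores, and the others at 28.3%, 48.4%, 66.0%, 85.2% and 96.2%. Recurrence rose with score in isolated peaks as it did elsewhere, apart from the 10 peaks at 16 to 21 in replicate 1. A score range held only 10 to 67 isolated peaks, and a difference within these intervals was not detectable at such numbers.

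**Figure D5:**
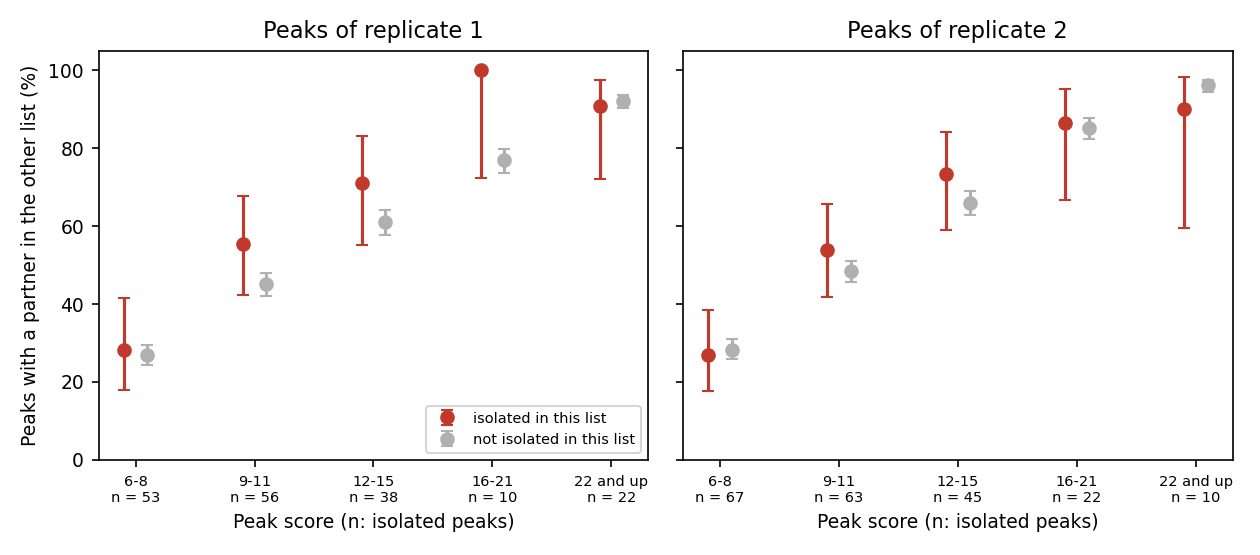
Percentage of peaks of replicate 1 (left) and replicate 2 (right) that overlap a peak of the other list (y), by peak score (x), for peaks with no other peak of their own list within 1000 kb (red) and for all others (grey), with 95% Wilson intervals. In every score range the intervals of both kinds overlap, for example 55.4% and 45.0% at scores of 9 to 11 in replicate 1.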

How the data were processed

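Peak lists of 2 HNF1 ChIP-seq libraries from Caco2 cells were analysed. Bowtie 1.0.0, HOMER 1.2 and the hg19 build are named, without roles, per the submitters' processing notes. Peaks were called on each library against its own input with HOMER findPeaks in factor mode, per the file headers, at a false discovery rate of 0.001 and 4-fold over input and over the surrounding 10000 bp. The deposited score is the authors' tag count per 10000000 tags, rounded. The other deposited values used were peak starts and ends, printed counting from 1.

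Overlapping peaks were joined, and a region took the highest score per list. Distances run between midpoints. The members and lists were chosen with earlier results of these data known. Named sites are the 10 best by the worse rank, the 6 farthest from another shared region, the 6 farthest from any peak and the 4 on each side of each threshold. No test across sites was made. The site finder was tested on simulated data and recovered 102 of 102 planted sites. Planned gene, start site and motif analyses were not run, since they need an annotation and a sequence of that build, which were not used here. The work used pandas 2.3.3, scipy 1.17.1 and numpy 2.4.6 under Python 3.11.15, with figures from matplotlib 3.10.9.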

Additional observations from a re-analysis of the deposited data

How the results depend on the processing

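Of 38 recomputed values, 28 stayed within the interval (or, for counts, within 1.5 times) of the reported one. The sets at 500 kb and without a score limit contain all 265 reported sites, and the set at 2000 kb lies within them. Part of these matches was therefore fixed in advance. The number of isolated sites was 595 at a distance of 500 kb, 87 at 2000 kb and 50 when peaks of either list counted as neighbours, which follows from the wider or narrower rule. With these 50 the median replicate 1 score was 11 and the median midpoint offset 48.5 bp. With only peaks at or above the median score of their list the count was again 265, but 109 of these were among the reported sites. Their median scores were 18 and 15, their nearest peak of 1 list was at a median of 399 kb, and 23.4% had one within 100 kb, as fewer and better scored peaks entered. When 50% of both peaks had to overlap, 222 of 267 sites were among those reported and the median offset was 23 bp. The recurrence shares at 500 and 2000 kb, added after seeing the data, ranged from 52.0% to 60.5%. No paired analysis was possible because a shared site needs both immunoprecipitations and the inputs have no values of their own here, so that no replicate could be left out either. Alternatives for motifs, start sites and genes were not run. The lists hold no reads, so the effect of depth was not tested.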

Other observations

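Chromosome X, which the choice of sites left out, held 56 shared regions, and 20 of them would have met the isolation distance and the score limit. This was 35.7% (95% Wilson interval 24.5% to 48.8%), against 9.30% (8.29% to 10.4%) on the autosomes. Shared regions were sparser on chromosome X, at 0.373 per Mb of its span against 0.678 to 1.38 per Mb on the autosomes, and the isolation rule itself gives a higher share where they are sparser. The 20 sites scored a median of 13 in replicate 1 (range 7 to 27) and 10.5 in replicate 2 (range 7 to 25). The farthest from another shared region, chrX:70434812-70435038, scored 14 and 10 and had its nearest shared regions at 15.3 Mb and 17.3 Mb. A peak of 1 list alone lay 2.50 kb from it. The highest replicate 1 score, 27, was at chrX:55169114-55169340, which scored 14 in replicate 2. All 20 isolated regions of chromosome X were below the score limit in at least 1 list, against 265 of 292 on the autosomes.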
